A study of Mus musculus with 8 samples.

Results

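The genes described here are 46 mouse genes of mitosis and cytokinesis, chosen by name for their roles in cell division, with earlier results of these data known. All 46 symbols matched 1 row each among the 54752 gene rows of the count table, and 45 of them passed the filter on low counts. The remaining one, Prc1, was listed at 0 in all 8 libraries. The libraries were made by bulk RNA sequencing of heart cells isolated by Langendorff perfusion and labelled as cardiomyocytes. Every mouse carried Carm1fl/fl, loxP-flanked alleles of the gene for the arginine methyltransferase CARM1. Control mice (CTRL) received an AAV9 vector carrying GFP and knockout mice (KO) an AAV9 vector carrying Cre, and each was sampled at a time labelled 1w or 3w, with 2 libraries in each of the 4 groups. The labels give injection on postnatal day 1 for replicate 1 and day 2 for replicate 2 of both 1w groups, and on day 3 and day 4 for those of both 3w groups, so the time label and the injection day cannot be told apart. The hearts are described as mosaic, no source used here names the vectors' promoters, and no group had Cre without floxed alleles. The labels do not say whether 1w and 3w are ages or times since injection, or whether replicate libraries stand for different animals, so the p-values rest on a spread that may be technical.

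Mitosis is the phase in which duplicated chromosomes are condensed, attached to a spindle of microtubules and pulled apart, and cytokinesis then cleaves the cell. Its proteins are mostly made in late S, G2 and M phase. The genes are held silent in quiescent cells by the DREAM complex and switched on by the MuvB core with B-MYB and FOXM1, which act through a promoter element called the CHR (cell cycle genes homology region) and often through CCAAT boxes bound by NF-Y. Mouse heart muscle cells stop dividing in the first weeks after birth. Many then pass through a last round in which the nucleus divides but the cell does not, which leaves them with a pair of nuclei.

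The promoter element is visible in the sequences of many of these genes. RefSeq promoter windows (assembly GRCm38.p6, from 250 bases before to 50 bases after a start) were at hand for 37 of the 46 genes, in 39 windows. The stretches printed here come from those windows and hold only bases before the start. The CHR often lies after it, as in Spc25 and Bub1b, at 24 and 40 bases past the start. Most upstream stretches of this length held no CHR motif, while all those printed but that of Ccnb1 do, so they are not typical. They cover genes of different roles: Mki67 and Top2a of the chromosomes, Cdk1 of mitotic entry, Cdc20 of anaphase, Kif11 of the spindle, and Ccnb1, whose change with Cre differed most between the times. Each is 150 bases, 5′ to 3′ on the gene's strand, and capitals mark the CHR motif (TTTGAA or TTCGAA) or the CCAAT motif on either strand, so that TTCAAA and ATTGG are the same motifs read from the other strand.
Mki67, chr7:135716380-135716529 (-): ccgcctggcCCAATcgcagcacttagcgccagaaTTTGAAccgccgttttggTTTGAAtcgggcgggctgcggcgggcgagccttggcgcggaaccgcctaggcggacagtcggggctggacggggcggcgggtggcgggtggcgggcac
Top2a, chr11:99024190-99024339 (-): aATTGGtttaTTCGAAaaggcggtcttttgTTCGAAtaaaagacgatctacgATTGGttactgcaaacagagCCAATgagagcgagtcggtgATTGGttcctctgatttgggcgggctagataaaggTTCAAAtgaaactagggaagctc
Cdk1, chr10:69352939-69353088 (-): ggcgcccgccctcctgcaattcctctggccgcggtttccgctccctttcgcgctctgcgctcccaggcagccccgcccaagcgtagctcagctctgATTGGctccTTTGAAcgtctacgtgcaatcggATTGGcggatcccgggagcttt
Cdc20, chr4:118437353-118437502 (-): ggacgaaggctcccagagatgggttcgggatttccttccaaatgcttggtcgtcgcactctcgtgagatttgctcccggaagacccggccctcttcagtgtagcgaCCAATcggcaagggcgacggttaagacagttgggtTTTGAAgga
Kif11, chr19:37376232-37376381 (+): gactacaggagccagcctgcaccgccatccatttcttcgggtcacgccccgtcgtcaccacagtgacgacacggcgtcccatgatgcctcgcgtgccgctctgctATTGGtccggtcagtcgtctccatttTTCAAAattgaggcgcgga
Ccnb1, chr13:100786571-100786720 (-): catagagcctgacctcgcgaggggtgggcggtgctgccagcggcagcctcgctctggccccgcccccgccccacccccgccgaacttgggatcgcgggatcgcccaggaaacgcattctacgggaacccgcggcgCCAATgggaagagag

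The motif TTTGAA, searched on both strands, was in 30 of the 39 windows (76.9%), against 17.9% of all 32851 windows of the same length. Within 100 bases before or 50 bases after the start it was in 29 (74.4%), against 8.01% of all. The other CHR word, TTCGAA, was in 3 windows (7.69% against 1.56%). CCAAT was in 28 windows (71.8% against 37.4% of all) and occurred 2 or more times in 19 (48.7% against 11.7%). A CHR word of either kind and CCAAT stood together in 26 windows (66.7% against 7.52%). The E2F-type words TTTGGCGC, TTTCCCGC and TTTCGCGC were in 3 windows (7.69% against 1.84%), and TATAAA was in 1 (2.56% against 13.6%). A match of letters is not a measured binding site, and the Ccnb1 window holds neither CHR word. The 26 tested members with TTTGAA that near the start and the 10 without had like median log2 differences with Cre at 1w, 0.44 in both. The corresponding medians were 0.76 and 0.995 at 3w, and for 3w against 1w they were -4.64 and -4.58 in control and -4.22 and -4.04 in KO.

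Total counts ranged from 20818285 to 53671626 per library, of which 40.7% to 47.8% came from mitochondrially encoded genes. Carm1, the targeted gene, was at 40.5 and 39.1 CPM (a gene's share of the counts on TMM-scaled library sizes) in the control 1w libraries, 39.9 and 39.3 in control 3w, 22.2 and 22.4 in KO 1w and 17.3 and 17.8 in KO 3w. It was lower in all 4 KO libraries than in any control library and remained well above 0 there. Of the 8 cardiomyocyte markers, 6 were detected and together held 33173 to 72325 CPM per library, while Actc1 and Pln, which heart muscle cells make in quantity, were listed at 0 throughout. A value of 0 for a gene, Prc1 included, is therefore given only as listed. Y-linked transcripts summed to 1 and 0 counts in control 1w, 6765 and 4814 in control 3w, 5025 and 4282 in KO 1w and 3 and 2 in KO 3w. At a single time, a difference between KO and control, and within a genotype one between the times, cannot be told apart from one between libraries with and without Y-linked transcripts. The average of the KO difference over both times has 1 group with and 1 without these transcripts on each side.

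The members were high at 1w and low at 3w, whether Carm1 was intact or Cre was given. Their CPM summed to 576 and 561 in the control 1w libraries and to 61.6 and 64.3 in control 3w, a 9.03-fold difference of the means. In KO the sums were 748 and 748 at 1w and 77.9 and 83.0 at 3w, a 9.30-fold difference. In edgeR's quasi-likelihood test (Benjamini-Hochberg adjusted p under 0.05 over all 14665 genes tested), 45 of 45 tested members were lower at 3w in control, against 36.0% of all genes, and 45 of 45 in KO, against 34.6%. The median log2 fold change was -4.64 in control (range -6.63 to -0.999) and -4.16 in KO (range -5.14 to -0.84), where the medians over all genes were -0.025 and -0.020. The lowest value in both was that of Cdc25c, with 1 count in control 3w and 4 in KO 3w. Every tested member reached the filter's level of 0.317 CPM in both 1w groups, and 9 reached it in no 3w group. Since those 9 passed through the time at which they were high, the fall is given as a description. In these bulk samples, fewer dividing cells and less RNA per cell cannot be told apart. Summed marker levels moved too. The fibroblast list was 3.35-fold higher at 1w than at 3w in control and 2.89-fold in KO, the endothelial list 2.51-fold and 2.74-fold, and the cardiomyocyte list was at 0.504 and 0.60 of its 3w level. Their part in the members' fall was not tested.

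How much was left at 3w differed widely between members. The median member kept 4.18% of its 1w CPM in control and 5.55% in KO. In control, 13 members fell by more than 5 on the log2 scale, 18 by 4 to 5, 7 by 3 to 4, 2 by 2 to 3, and 5 by less than 2. These 5 were Cenpa, Smc4, Cenpf, Incenp and Mad2l1, a group picked here after their values were seen. Cenpa kept 49.96% of its 1w level in control and 56.0% in KO. For Smc4 the shares were 35.8% and 38.2%, for Cenpf 34.8% and 32.5%, for Incenp 27.3% and 17.8%, and for Mad2l1 25.8% and 20.8%. CENP-A is the histone H3 variant that marks centromeres through the whole cell cycle, and SMC4 is a core of both condensin complexes. At 1w these 5 genes made up 20.8% and 20.2% of the members' summed CPM in control and 17.4% and 17.1% in KO. At 3w they made up 67.4% and 65.8% in control and 55.3% and 56.8% in KO. The other 40 tested members summed to 456 and 448 CPM in control 1w and 20.1 and 22.0 in control 3w, which differ 21.5-fold, and to 617 and 620 in KO 1w and 34.8 and 35.8 in KO 3w, which differ 17.5-fold.

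**Figure D1:**
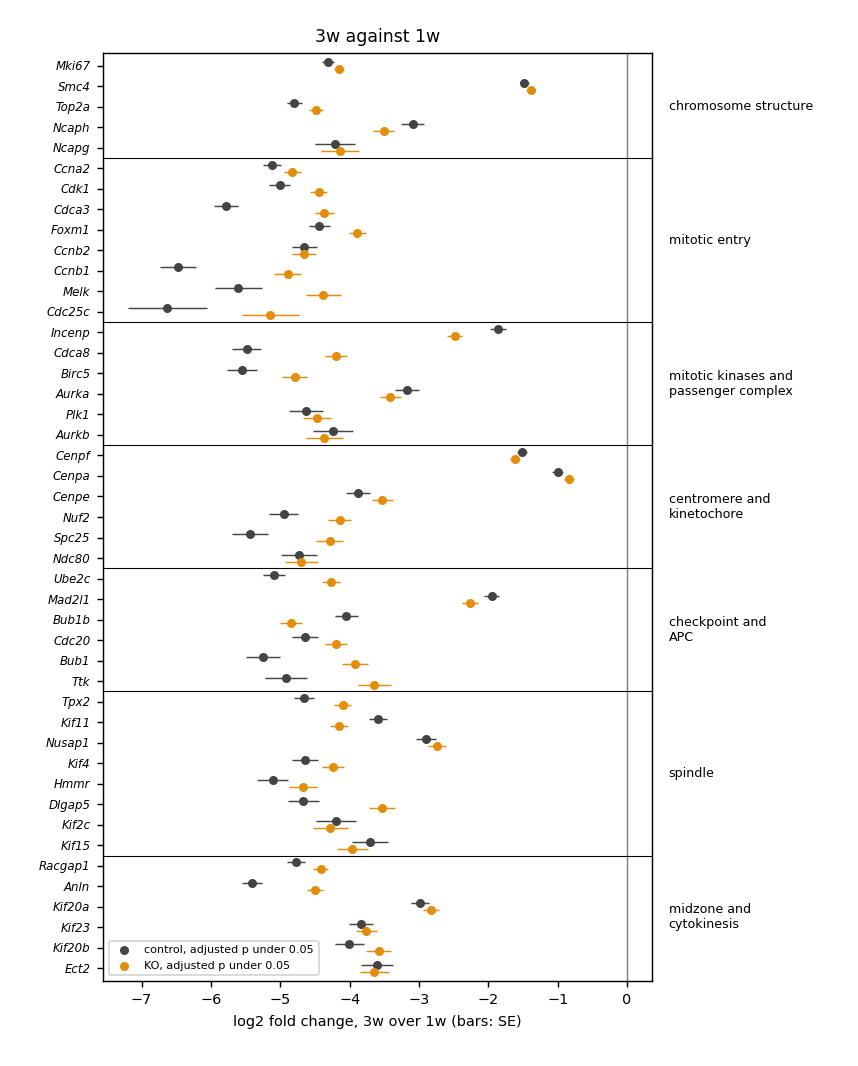
Log2 fold change of each tested member from 1w to 3w (x axis; negative is lower at 3w) in control and in KO, with points for the edgeR estimate, bars for its SE and genes ordered by role. All points lie left of 0, and Cenpa, Smc4 and Cenpf lie nearest to it. The SE is the absolute estimate divided by the square root of F in its test. For members with few counts at 3w it can be smaller than the counting error.

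The KO libraries held more of most of these transcripts than control at 1w, by a small amount that differed between members. Of the 45 tested members, 40 were higher in KO 1w and 0 lower (edgeR, adjusted p under 0.05), where 23.0% of all genes were called higher and 20.0% lower. The median log2 fold change was 0.45, a median fold of 1.36, against 0.022 for all genes. In 32 members it lay between 0.3 and 0.6, and both KO libraries lay above both control libraries in 43, against 37.8% of all genes. The 6 above 0.6 were Incenp, the checkpoint kinase gene Bub1b, the motor genes Kif15 and Kif2c, the mitotic kinase gene Plk1 and the transcription factor gene Foxm1. The 5 not called were Smc4, Ncapg, Cenpf, Ttk and Dlgap5. Calls differed with the tool: DESeq2 on the same counts called 25 higher and 0 lower.

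At 3w the members' estimates were more spread out and less certain, with fewer counts behind them. In KO 3w, 25 of 45 were higher and 0 lower (edgeR), where 24.4% of all genes were called higher and 24.8% lower. The median log2 fold change was 0.78, a median fold of 1.72, against 0.0061 for all genes, and single members ranged from -0.10 to 2.04. Some members reached the filter's level only at 1w. Of the 36 that reached it in a 3w group, 22 were called higher and 0 lower, with a median of 0.75. The highest value was that of Cdc25c, not called, with 1 count in control 3w and 4 in KO 3w. The median SE of a member was 0.34 at 3w and 0.091 at 1w. Both libraries of the group had 10 or more counts in 45 members in each 1w group, in 24 in control 3w and in 36 in KO 3w. Both KO libraries lay above both control libraries in 27 members, against 36.6% of all genes, and below them in 1, Cenpf, against 36.0%. Leaving out control 3w replicate 1 left 14 members called higher, and leaving out KO 3w replicate 1 or replicate 2 left 16 in each case. The summed CPM of all members was 1.32-fold higher in KO at 1w and 1.28-fold at 3w. That of the 40 tested members without the 5 best retained was 1.37-fold and 1.68-fold higher. The 5 were picked, after the values were seen, by their small fall in control, a choice that used the control values compared here.

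**Figure D2:**
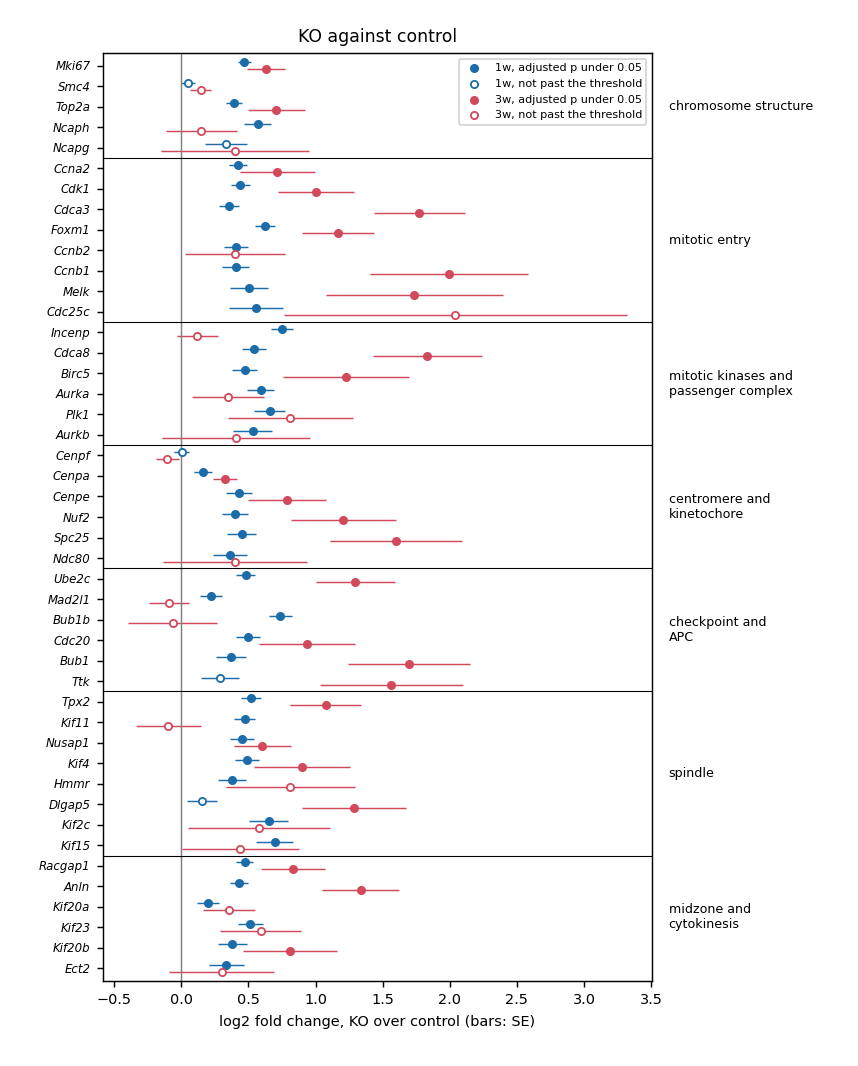
Log2 fold change of each tested member in KO against control (x axis) at 1w and at 3w, with points for the edgeR estimate, filled where adjusted p is under 0.05, and bars for its SE. At 1w the points lie between 0.00 and 0.75, and at 3w they spread from -0.10 to 2.04 with wider bars. The SE is derived from the F of each test.

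Averaging over both times puts a group with and a group without Y-linked transcripts on each side. A difference tied to them cancels only if its log2 size is equal at both times, which cannot be checked here. In this average, 33 of 45 members were higher in KO and 0 lower (edgeR). Over all genes, 27.5% were called higher and 25.3% lower. The median log2 fold change was 0.59, against 0.016 for all genes, and members ranged from -0.05 to 1.30. The highest was again Cdc25c, not called. Leaving out single libraries gave 22 to 33 members called higher, the fewest without KO 3w replicate 1, followed by 26 without control 3w replicate 1.

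Transcripts of several other cell types were also higher in KO, while most erythroid markers at 1w and most epicardial markers at 3w were lower. Over all genes, 23.0% were called higher and 20.0% lower at 1w, and 24.4% and 24.8% at 3w. Of the fibroblast markers, 9 of 9 tested were higher at 1w and 9 of 9 at 3w, with Tcf21 listed at 0. Their summed CPM was 1305 and 1310 in control 1w, 2395 and 2370 in KO 1w, 388 and 393 in control 3w and 819 and 828 in KO 3w. Of the macrophage and myeloid markers, 10 of 10 tested were higher at each time, with Itgam listed at 0, and the sum went from 47.8 and 49.2 CPM in control to 160 and 153 in KO at 1w, and from 87.1 and 85.6 to 131 and 135 at 3w. Endothelial markers were higher in 9 of 10 and lower in 0 at 1w and higher in 7 and lower in 2 at 3w, with sums 1.21-fold and 1.10-fold higher in KO. Smooth muscle and pericyte markers were higher in 5 of 9 and lower in 3 at 1w and higher in 9 of 9 at 3w, with sums 1.28-fold and 1.78-fold higher. Epicardial markers were higher in 6 of 9 at 1w and lower in 6 and higher in 2 at 3w. Of the 6 cardiomyocyte markers tested, 5 were lower and 1 higher at 1w and 5 were lower at 3w, with sums at 0.941 and 0.790 of control. Erythroid markers were lower in 4 of 5 at 1w and higher in 2 at 3w, and lymphoid markers summed to 0.477 to 2.38 CPM in any library. The part of these cells in the members' difference between KO and control was not tested.

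**Figure D3:**
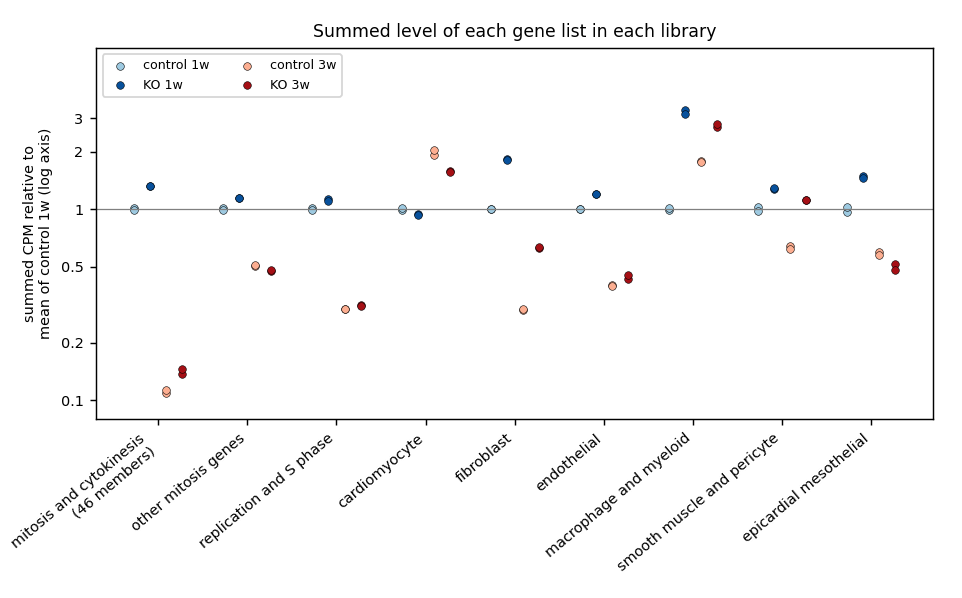
Summed CPM of the members, of related gene lists and of cell type markers in each library (points), divided by the mean of the control 1w libraries, on a log axis. The members show the deepest fall at 3w, to 0.108 and 0.113 in control and 0.137 and 0.146 in KO, and the fibroblast and macrophage lists stand higher in KO than in control at both times.

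Of the genes of chromosome structure, Mki67 encodes Ki-67, the protein that coats mitotic chromosomes and is the usual marker of proliferating cells, and lies at chr7:135689784-135716361 on the minus strand (ENSMUSG00000031004; GRCm38, GENCODE M21). It was at 59.4 and 52.4 CPM in control 1w and 76.9 and 76.7 in KO 1w, and at 2.69 and 2.93 in control 3w and 3.92 and 4.71 in KO 3w. The KO libraries lay above control at both times without overlap, by 0.47 ± 0.048 (log2 ± SE; edgeR adjusted p = 3.5e-12) at 1w and 0.63 ± 0.14 (adjusted p = 0.00016) at 3w. Its log2 fold change from 1w to 3w was -4.31 ± 0.084 in control and -4.15 ± 0.076 in KO. Smc4, the condensin gene named above, was more even. It was at 46.3 and 40.9 CPM in control 1w and 44.6 and 45.1 in KO 1w, and at 14.8 and 16.5 in control 3w and 16 and 18.2 in KO 3w. Its KO and control libraries overlapped at both times, with differences of 0.05 ± 0.055 at 1w and 0.14 ± 0.076 at 3w (adjusted p = 0.50 and 0.12). Per kilobase of exon, Smc4 had the highest level of all members in control 1w, at 8.38 CPM per kb against 5.56 for Mki67. Top2a, the topoisomerase that untangles sister DNA, was called higher at both times (0.39 and 0.71), although its libraries overlapped at 3w, with 1.12 and 1.98 CPM in control and 1.98 and 2.82 in KO. The condensin I subunit gene Ncaph was called at 1w alone, at 0.57, and its partner Ncapg at neither time. Ncapg shares 13.4% of its exon bases with Lcorl, and reads there cannot be assigned without strand.

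Among the genes of mitotic entry, Cdk1 encodes the kinase that drives cells into mitosis, which is bound to cyclin A2 (Ccna2) and then to B-type cyclins (Ccnb1, Ccnb2). Cdk1 was at 16.9 and 18.1 CPM in control 1w and 23.6 and 24.0 in KO 1w, and at 0.596 and 0.459 in control 3w and 1.13 and 1.05 in KO 3w. Both KO libraries were above both control libraries at each time, by 0.44 ± 0.070 (edgeR adjusted p = 4.3e-07) and 1.00 ± 0.28 (adjusted p = 0.0023). Ccna2 was at 21.3 and 23.2 CPM in control 1w, 29.3 and 30.9 in KO 1w, 0.763 and 0.459 in control 3w and 0.989 and 1.12 in KO 3w. It differed by 0.42 ± 0.066 (adjusted p = 2.2e-07) at 1w and 0.71 ± 0.28 (adjusted p = 0.030) at 3w, again without overlap, and 12.5% of its exon bases are shared with Exosc9. Ccnb1, at chr13:100778650-100786570 on the minus strand, was at 8.06 and 7.87 CPM in control 1w and 10.4 and 10.7 in KO 1w, and nearly gone at 0.0715 and 0.106 in control 3w against 0.494 and 0.209 in KO 3w. The KO libraries were higher by 0.40 ± 0.10 (adjusted p = 0.00063) at 1w and 1.99 ± 0.59 (adjusted p = 0.0036) at 3w. From 1w to 3w the log2 fold change was -6.48 ± 0.26 in control and -4.89 ± 0.20 in KO. The control value rests on 6 counts at 3w. Its SE, derived from the F of the test, is smaller than the counting error of so few. A processed copy, Ccnb1-ps, had 0 to 31 counts per library, so part of the reads of either may have been assigned to the other. Cdc25c, the phosphatase gene whose product activates CDK1, was at 1.89 and 1.69 CPM in control 1w and 2.36 and 2.88 in KO 1w (0.55 ± 0.20, adjusted p = 0.021). At 3w it had 0 and 1 counts in the control libraries and 3 and 1 in the KO libraries. Their sums, 1 in control and 4 in KO, gave a ratio of 4.93 with a 95% counting interval of 0.488 to 243. The difference was not called. Cdc25c shares 12.7% of its exon bases with Gm3550. In control, its 107 counts at 1w and 1 count at 3w give a ratio of 124 after scaling, with an interval of 21.9 to 4959. All 8 genes of this role were called higher in KO at 1w (median 0.43), against 23.0% of all genes. At 3w the median was 1.45, and 6 were called, all but Ccnb2 and Cdc25c, against 24.4% of all genes. Among them Foxm1, which activates late cell cycle genes, differed by 0.62 and 1.17, Melk by 0.51 and 1.74, and Cdca3, which promotes the destruction of the CDK1 inhibitor WEE1, by 0.36 and 1.77. The summed CPM of the role was 1.37-fold higher in KO at 1w and 2.18-fold at 3w.

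The next role holds the mitotic kinases and the chromosomal passenger complex. That complex, made of Aurora B (Aurkb), INCENP, survivin (Birc5) and borealin (Cdca8), corrects faulty spindle attachments and then marks the cleavage plane. Incenp, at chr19:9872296-9899551 on the minus strand, had the largest difference of any member at 1w. It was at 10.3 and 11.1 CPM in control 1w and 18.3 and 17.9 in KO 1w, a difference of 0.75 ± 0.083 (edgeR adjusted p = 1.8e-11). At 3w it was at 3.19 and 2.65 CPM in control and 2.75 and 3.70 in KO, which overlapped (0.12 ± 0.15, adjusted p = 0.55). Cdca8 showed the reverse order of sizes, with 8.69 and 9.40 CPM in control 1w and 13.9 and 12.5 in KO 1w, and 0.215 and 0.177 in control 3w and 0.60 and 0.837 in KO 3w. Its differences were 0.54 ± 0.091 (adjusted p = 1.2e-06) and 1.83 ± 0.40 (adjusted p = 0.00012), with no overlap at either time. All 6 genes of the role were called higher in KO at 1w (median 0.57), against 23.0% of all genes. At 3w Birc5 was called beside Cdca8, at 1.23, and the kinase genes Aurka, Aurkb and Plk1 were not, with 0.35 ± 0.27, 0.40 ± 0.55 and 0.81 ± 0.47 and overlapping libraries. The members of 1 complex kept different shares. In control, the log2 fold change from 1w to 3w was -1.86 ± 0.12 for Incenp. For Aurkb, Birc5 and Cdca8 it was -4.24 ± 0.29, -5.55 ± 0.22 and -5.49 ± 0.21. These rest on 13, 13 and 14 counts in control 3w, so their SE may understate the counting error.

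At the centromere and kinetochore, Cenpf encodes a large kinetochore and nuclear matrix protein and Cenpa the centromeric histone. Cenpf was at 32.4 and 29.8 CPM in control 1w and 31.4 and 30.5 in KO 1w, and at 10.8 and 10.9 in control 3w and 9.78 and 10.4 in KO 3w. It was called at neither time, with 0.00 ± 0.058 and -0.10 ± 0.086 (edgeR adjusted p = 0.99 and 0.33), and its value at 1w, smaller than its SE, gave no direction. Cenpa was at 18 and 19.4 CPM in control 1w, 21.2 and 20.8 in KO 1w, 9.70 and 8.94 in control 3w and 11.7 and 11.8 in KO 3w. Its libraries did not overlap, and it was called at 3w by 0.33 ± 0.087 (adjusted p = 0.0014) and barely at 1w, by 0.16 ± 0.068 (adjusted p = 0.048). Other kinetochore genes fell further with time. Ndc80, Nuf2 and Spc25 encode subunits of the complex that grips microtubules. Their log2 fold changes with time in control were -4.74 ± 0.26, -4.95 ± 0.21 and -5.44 ± 0.25. They rest on 13, 18 and 10 counts in control 3w, so their SE may understate the counting error. For Cenpa the value was -0.999 ± 0.079 and for Cenpf -1.52 ± 0.070. Ndc80, Nuf2, Spc25 and Cenpe, which encodes a kinetochore motor, were called higher in KO at 1w, at 0.36 to 0.45. At 3w Nuf2 (1.21), Spc25 (1.60) and Cenpe (0.78) were called and Ndc80 (0.40 ± 0.54) was not. Cenpa and Cenpf held most of the CPM of the role at 3w, and its sum was 1.13-fold higher in KO there.

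In the spindle checkpoint and anaphase, the product of Cdc20 activates the anaphase-promoting complex, and that of Ube2c works with it to attach ubiquitin. The products of Mad2l1, Bub1, Bub1b and Ttk hold the complex back until every chromosome is attached. Ube2c was at 15.2 and 16.8 CPM in control 1w, 21.3 and 23.6 in KO 1w, 0.501 and 0.424 in control 3w and 1.24 and 1.08 in KO 3w. KO was higher without overlap by 0.48 ± 0.074 (edgeR adjusted p = 2.2e-07) and 1.29 ± 0.30 (adjusted p = 0.00018); 22.8% of its exon bases are shared with Tnnc2, which was listed at 0 in all libraries. Mad2l1 was at 13.1 and 11.8 CPM in control 1w and 14.9 and 13.7 in KO 1w, and at 3.05 and 3.36 in control 3w and 2.86 and 3.10 in KO 3w. It was called higher at 1w (0.22 ± 0.082, adjusted p = 0.024) and overlapped at 3w (-0.09 ± 0.15). Bub1b, at chr2:118598211-118641591 on the plus strand, was at 9.11 and 9.76 CPM in control 1w and 15.6 and 16 in KO 1w, the second largest difference of any member (0.74 ± 0.085, adjusted p = 6.6e-11). At 3w it was at 0.620 and 0.495 CPM in control and 0.494 and 0.593 in KO, which overlapped (-0.07 ± 0.33, adjusted p = 0.89). Its relative Bub1 differed by 0.37 at 1w and 1.69 at 3w, both called, with 0.167 and 0.177 CPM in control 3w and 0.777 and 0.349 in KO 3w. Cdc20 was called at both times (0.50 and 0.93) and Ttk at 3w alone (1.56).

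Of the spindle motors and assembly factors, TPX2 starts microtubules around the chromosomes, and KIF11 slides the poles apart. Tpx2 was at 15.7 and 14.8 CPM in control 1w, 21.7 and 21.8 in KO 1w, 0.572 and 0.636 in control 3w and 1.45 and 1.08 in KO 3w. KO was higher without overlap, by 0.52 ± 0.074 (edgeR adjusted p = 3.0e-08) and 1.07 ± 0.27 (adjusted p = 0.00060). Kif11, at chr19:37376403-37421859 on the plus strand, was at 13.3 and 13.8 CPM in control 1w and 18.6 and 19.1 in KO 1w, higher by 0.47 ± 0.076 (adjusted p = 5.1e-07). At 3w it was at 1.07 and 1.20 CPM in control and 1.02 and 1.08 in KO, which overlapped (-0.10 ± 0.24, adjusted p = 0.77). Of the 8 genes of this role 7 were called higher at 1w, all but Dlgap5 (0.15 ± 0.11), against 23.0% of all genes. At 3w 4 were called higher, against 24.4%. Those at 3w were Tpx2, Kif4 (0.90; 15.1% of its exon bases are shared with Pdzd11), Nusap1 (0.60) and Dlgap5 (1.29). The motor genes Kif15 and Kif2c, at 0.70 and 0.65 at 1w, had 0.44 ± 0.44 and 0.58 ± 0.53 at 3w, and Hmmr, which ties TPX2 to the poles, had 0.81 ± 0.48. Nusap1 fell least with time among them, with log2 fold changes of -2.90 ± 0.15 in control and -2.74 ± 0.13 in KO.

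For cytokinesis, centralspindlin, made of RACGAP1 and KIF23, gathers at the spindle midzone and brings ECT2 to the cortex, where RHOA is activated and anillin (Anln) ties the contractile ring together. Racgap1 was at 23.7 and 22.1 CPM in control 1w, 31.8 and 31.4 in KO 1w, 0.811 and 0.848 in control 3w and 1.27 and 1.67 in KO 3w. KO was higher without overlap by 0.47 ± 0.064 (edgeR adjusted p = 6.3e-09) and 0.83 ± 0.24 (adjusted p = 0.0027). Anln, at chr9:22332012-22389188 on the minus strand, was at 19.5 and 20.6 CPM in control 1w and 27.5 and 26.7 in KO 1w, and at 0.429 and 0.530 in control 3w and 1.34 and 1.05 in KO 3w. Its differences were 0.43 ± 0.067 (adjusted p = 2.1e-07) and 1.34 ± 0.29 (adjusted p = 7.4e-05), without overlap. Kif23, Kif20b and Ect2 were called at 1w, at 0.51, 0.38 and 0.33. At 3w Kif20b was called (0.81) and Kif23 and Ect2 were not (0.59 ± 0.30 and 0.30 ± 0.39). Kif20a was called at 1w, at 0.20 ± 0.082, and not at 3w (0.35 ± 0.19), and 29.3% of its exon bases are shared with Cdc23, so part of its counts may belong to that gene. Prc1, which bundles midzone microtubules, was listed at 0, and 11.1% of its exon bases are shared with Rccd1. The roles differed little at 1w, where their medians lay between 0.38 (centromere and kinetochore) and 0.57 (kinases and passenger complex). At 3w the medians ran from 0.40 (chromosome structure) to 1.45 (mitotic entry), and no test of the difference between roles was made.

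**Figure D4:**
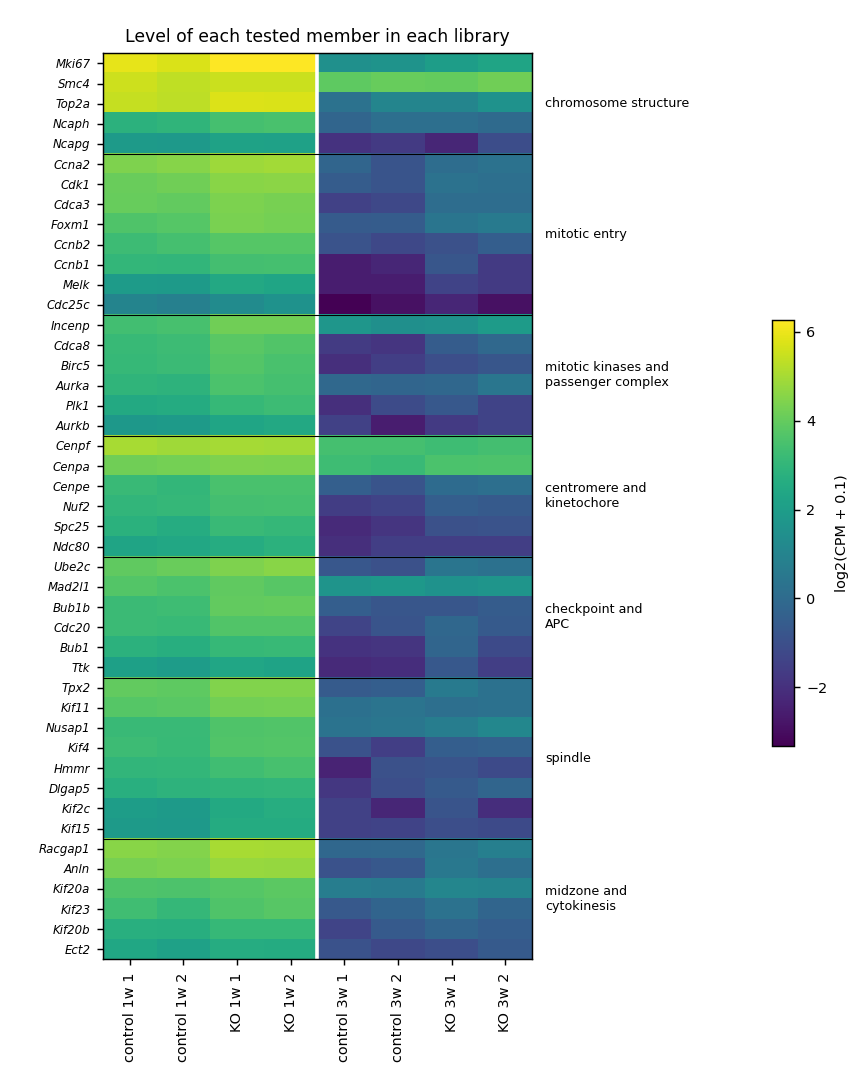
Level of each tested member in each of the 8 libraries as log2(CPM + 0.1) (color), with genes in rows ordered by role and libraries in columns by group. In every row the 4 columns at 1w are brighter than the 4 at 3w, and Smc4, Cenpf and Cenpa stay brightest at 3w.

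Whether the difference between KO and control changed with time was tested as the KO difference at 3w less that at 1w. It was positive and called in 7 of 45 members and negative and called in 1 (edgeR), where 17.6% of all genes were called higher and 17.9% lower, so the share of members called was no larger than that of all genes. The median was 0.32, against -0.0015 for all genes. The 7 were Ccnb1, Cdca3, Bub1, Cdca8, Dlgap5, Anln and Ube2c, and the 1 was Incenp. Bub1b had the most negative value, -0.80 ± 0.34, which was not called (adjusted p = 0.062). Without control 3w replicate 1 the counts were 1 positive and 0 negative, and without KO 3w replicate 1 they were 3 and 0. This contrast runs fully along the presence of Y-linked transcripts, and cannot be told apart from it.

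Other genes of the same processes were then counted, from lists drawn up by function. Of 61 tested further mitosis genes, 31 were higher and 1 lower in KO at 1w (median 0.31), where 23.0% of all genes were called higher and 20.0% lower. At 3w 18 were higher and 5 lower (median 0.59), a share of higher calls near the 24.4% of all genes, where 24.8% were lower. With time 55 fell in control and 58 in KO, against 36.0% and 34.6% of all genes. Ncapd2, a condensin subunit gene, was at 33.8 ± 0.52 CPM in control and 41.9 ± 0.33 in KO (SD, n = 2 libraries) at 1w, a called difference of 0.31, and Hjurp, the loading factor of CENP-A, differed by 0.21. The exception at 1w was Pttg1, which encodes securin: it was at 31.7 ± 1.5 CPM in control and 26.7 ± 0.23 in KO at 1w and at 53.8 ± 3.5 and 42.9 ± 0.71 at 3w, lower in KO by 0.24 and 0.33 on the log2 scale. Pttg1 was also one of the genes that rose with time, by 0.78 in control and 0.69 in KO, with Lin52 of the MuvB core (1.72 and 0.66). Also lower in KO at 3w were Ckap5 (-0.24), Ncapd3 (-0.26), Lin52 (-0.81) and Sgo2a (-0.71), while the microtubule regulator Stmn1 was higher by 0.52. Mybl2, which encodes B-MYB, was named after its values were seen and had the largest difference of this list at 1w. It was higher in KO at both times, by 1.11 ± 0.19 and 2.32 ± 0.69. Kif18b was listed at 0.

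Genes that restrain mitotic entry, with subunits of the anaphase-promoting complex, showed no common direction: of 18 tested, 6 were higher and 3 lower in KO at 1w (23.0% and 20.0% of all genes) and 3 higher and 4 lower at 3w (24.4% and 24.8%), with medians of -0.012 and -0.019. Among them the subunit genes Anapc13 and Anapc4 were lower at both times, by 0.20 and 0.27 and by 0.14 and 0.21 on the log2 scale. The phosphatase subunit gene Ppp2r5c was lower by 0.25 at 1w. Anapc5 and Cdc27 were higher at 3w, by 0.10 and 0.33. Cdc25b, counted in this list though its product promotes mitotic entry, was higher at 3w by 0.51. Wee1 was listed at 0. Of 25 genes of general cytokinesis and abscission, 9 were higher and 5 lower at 1w (23.0% and 20.0% of all genes) and 11 higher and 6 lower at 3w (24.4% and 24.8%), with medians of 0.087 and 0.085. Of the most abundant, the actin crosslinker gene Actn4 differed by 0.57 and 1.20, and the non-muscle myosin genes Myh9 by 0.53 and 1.13 and Myh10 by 0.28 and 0.53, while Rhoa differed by 0.09 at 3w. Fibroblasts and smooth muscle cells also make these, their summed markers were higher in KO as given above, and their part was not tested. The 5 lower at 1w were Diaph2 (-0.28), Chmp4c (-0.33), Vps4b (-0.27), Tsg101 (-0.29) and Rab11a (-0.16). Chmp1a was listed at 0. Of 27 tested replication and S-phase genes, 9 were higher and 0 lower at 1w (23.0% and 20.0% of all genes) and 5 higher and 4 lower at 3w (24.4% and 24.8%), with medians of 0.16 and 0.058. With time 24 fell in control (median -1.61) and 25 in KO (median -1.64), against 36.0% and 34.6% of all genes, and Gmnn rose in control by 0.34. Pcna, the sliding clamp of DNA polymerase, was higher in KO by 0.42 at 1w and lower by 0.25 at 3w, and Mcm6 of the replicative helicase was higher by 0.27 and 0.86, with Mcm3 higher by 0.25 at 1w and Mcm2 by 0.77 at 3w. Cdc45 (-0.53), Uhrf1 (-0.55) and Gmnn (-0.32) were lower at 3w as well. Cdt1 and Gins2 were listed at 0. The genes of this list and of the members share the same libraries, and no test of the difference between lists was made.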

How the data were processed

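The deposited table holds whole-number counts of reads per Ensembl gene ID for 8 libraries, used as raw counts. The labels' protocols name SMART and Nextera XT library kits, which do not mark strand. The tools the authors used, per the submitters' processing notes, include FastQC, MultiQC, HISAT2, featureCounts and DESeq2, on build mm10. For their versions, the strand setting and the annotation: not given in the sources used here.

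Symbols came from GENCODE M21. The 46 members and all gene lists were chosen with earlier results of these data known. Genes were kept by edgeR's filterByExpr (minimum count 10, minimum total 15), which left 14665. Library sizes were scaled by TMM, with factors of 0.759 to 1.23. Differences were tested with edgeR 4.0.16 (R 4.3.3, limma 3.58.1): all 4 groups entered a single robust quasi-likelihood fit (4 residual degrees of freedom, common CV 3.03%), followed by F-tests of each contrast. Benjamini-Hochberg adjustment covered the whole table, and the script was tested on simulated data. The SE given is the absolute log2 fold change divided by the square root of F. It is not a separate estimate of error and can be smaller than the counting error where counts are few. Total counts per library were 20818285 to 53671626, and the 2 intervals given are exact and cover counting error only.

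Values in every library are given for the 2 members of each role with the highest mean CPM and for the members with the largest and smallest log2 fold change in each comparison. Of each further list, the 3 called genes with the highest mean CPM are named, with called genes of the opposite direction where these are 5 or fewer in the comparisons given. Mybl2 was named after its values were seen. Alternatives were DESeq2 1.42.0, its size factors in edgeR, a minimum count of 30 and no filter, only the groups compared, counts without mitochondrially encoded genes, a replicate block, and leaving out each library. Sequences came from RefSeq promoter tables.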

Additional observations from a re-analysis of the deposited data

Results flagged for a closer look

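The difference between KO and control changed with time in 8 of the 45 tested members, by the test of the difference itself (edgeR, adjusted p under 0.05). This is no more than over all genes, of which 17.6% were called higher and 17.9% lower. The counts were 7 positive and 1 negative with all libraries, 1 and 0 without control 3w replicate 1, and 3 and 0 without KO 3w replicate 1. As the KO difference at 3w less that at 1w, on the log2 scale, it was 1.59 for Ccnb1, 1.42 for Cdca3, 1.33 for Bub1, 1.29 for Cdca8, 1.13 for Dlgap5, 0.91 for Anln and 0.82 for Ube2c. For Incenp it was -0.63. Each of the 7 positive genes had under 1 CPM in both control 3w libraries, where Ccnb1 was at 0.0715 and 0.106 CPM. These values run along the presence of Y-linked transcripts and cannot be told apart from it.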

How the results depend on the processing

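In each alternative run, 45 tested members were called lower at 3w in both genotypes, and 0 were called lower in KO at 1w, at 3w or on average. Leaving out single libraries gave 34 to 38 members called higher at 1w (40 with all libraries), 14 to 24 at 3w (25), 22 to 33 on average (33), and 1 to 7 positive (7) and 0 to 1 negative (1) differences between the times. The medians then ranged from 0.71 to 0.81 at 3w, from -4.64 to -4.32 for time in control, from -4.21 to -4.06 for time in KO, from 0.28 to 0.38 for the difference between the times and from 0.52 to 0.63 on average. DESeq2 called 25 members higher at 1w, 18 at 3w and 3 in the difference between the times, and over all genes 2002 higher and 2041 lower at 1w, against 3373 and 2932 in edgeR. The cause was not tested. Replicate numbers did not pair the libraries: same-numbered deviations correlated at -0.15 to 0.013 between groups over 8582 genes. With the replicate number as a block, 39 members were higher at 1w, 24 at 3w and 33 on average. The Cenpf difference at 1w turned negative with DESeq2 (-0.011), with its size factors (-0.0068), with only the groups compared (-0.0082), with the replicate block (-0.0021) and without mitochondrially encoded genes (-2.09e-04). With single libraries left out it ranged from -0.065 to 0.054, and that of Smc4 from -0.046 to 0.13. At 3w, leaving out single libraries also turned the sign of uncalled members. The ranges were -0.80 to 1.02 for Ncapg (average -0.24 to 0.67), -0.093 to 0.31 for Ncaph, -0.016 to 0.61 for Aurka, -0.12 to 1.74 for Aurkb, -0.13 to 0.30 for Incenp, -0.016 to 0.74 for Ndc80, -0.22 to 0.13 for Bub1b, -0.52 to 1.45 for Kif2c, -0.077 to 2.02 for Hmmr and -0.0016 to 0.56 for Ect2.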
